A study of Mus musculus with 8 samples.

Results

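Endothelial cells of brain microvessels (BMECs), cultured from wild-type mice, were profiled by RNA sequencing in 4 libraries, replicates 1 to 4, which are 4 of the 8 libraries of a study of mice with and without the calcium channel subunit Cavβ3. The 4 libraries were chosen by their titles, and no library of the other genotype enters any value given here. Primary cells were grown at baseline, with no agent added beyond the culture medium of DMEM, fetal calf serum, a fibroblast growth factor, heparin and antibiotics. The labels describe the 4 libraries as independent biological replicates, and they give neither strain nor age nor whether animals were pooled. A gene was called expressed when it reached 1 FPKM, that is, fragments per length of exon and per depth of the library, in all 4 libraries. By this rule 10730 of the 54532 genes in each table were expressed.

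Brain endothelial cells line the vessels of the brain and form the blood-brain barrier. Tight junctions seal the gaps between neighbouring cells, few vesicles cross the cell, efflux pumps return lipophilic compounds to the blood, and carriers bring in glucose and amino acids. In the brain these features are induced by Wnt ligands from neural cells, which act on Frizzled receptors and β-catenin, and are maintained by pericytes and astrocytes. Arteries, capillaries and veins of the brain carry different sets of genes. No freshly isolated endothelium was measured, so a low level in these cultures is not a measured loss.

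Each table implied between 24946878 and 28475518 reads or fragments, and between 11517 and 11960 genes per library reached 1 FPKM. Replicates 1 and 2 lay apart from replicates 3 and 4. The correlation of log2(FPKM + 1) over expressed genes was 0.988 between replicates 1 and 2 and 0.992 between replicates 3 and 4, and 0.958 to 0.969 for the other pairs. The Y-linked gene Ddx3y had 9.48 and 8.59 FPKM in replicates 1 and 2 and 0 in replicates 3 and 4, where a count of 0 allows up to 0.0222 FPKM. Uty, Eif2s3y and Kdm5d, also Y-linked, were likewise above 0 in replicates 1 and 2 only. The X-linked RNA Xist had 15.1, 12.9, 28.3 and 43.3 FPKM in replicates 1 to 4. The labels give no sex, and the part of sex in the differences between the pairs was not tested. Cacnb3, which encodes Cavβ3, had 3.38, 3.56, 1.12 and 0.980 FPKM in replicates 1 to 4, all above 0. The labels name no batch. Levels are given below per library or as a mean, and only some genes that differ between the 2 pairs are pointed out. A mean can hide such a difference. Esam, given below as a mean, had 279 and 276 FPKM in replicates 1 and 2 and 185 and 170 FPKM in replicates 3 and 4.

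Protein coding genes made up 9753 of the 10730 expressed genes, which is 90.9%, and these 9753 are 44.3% of the 21995 protein coding genes listed. The rest were 504 pseudogenes, 336 long noncoding RNAs, 97 small or structural RNAs and 40 rows of other or no class. The median of the mean FPKM over expressed genes was 8.65. A mean of 100 FPKM was reached by 403 genes and a mean of 1000 FPKM by 13. At the other end, 24623 genes, 4266 of them protein coding, were listed at 0 in all 4 libraries. Another 2232 genes reached 1 FPKM in some but not all libraries, among them 234 that did so in both replicates 1 and 2 and in neither of replicates 3 and 4, and 396 with the opposite pattern. The lowest values just inside the threshold were those of Poc1a, Fam151b and Slc35d2, whose lowest library had 1.00 FPKM each. Just outside it lay Tnfrsf14, Zfp2 and Lyrm9, whose lowest libraries had 0.996, 0.996 and 0.998 FPKM.

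The 10 most abundant rows held 12.2 ± 0.875% of the summed FPKM (SD, n = 4), the top 100 held 28.7% and the top 1000 held 59.8%. A single short row dominated this share. Gm23935, annotated as a predicted microRNA of 57 bases at chr16:11144125-11144181 on the plus strand (GRCm38), had 19335, 15559, 24217 and 19006 FPKM in replicates 1 to 4, or 6.89% of the summed FPKM. These values stand for 30008, 22125, 39307 and 28107 reads, since division by a length of 57 bases raises FPKM. The class is that of the annotation, and which kind of RNA these reads came from was not tested. Another abundant row, CT010467.1, is annotated as ribosomal RNA. It had 963, 516, 993 and 972 FPKM in replicates 1 to 4. The sequence is shown because it also occurs at other annotated rows, and the capitals mark the 46 bases shared with Gm24187.
Gm23935: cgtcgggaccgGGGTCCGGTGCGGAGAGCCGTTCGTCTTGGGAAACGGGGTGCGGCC
Gm24270 and Gm24245 carry the same 57 bases. Gm24270 had 271, 195, 434 and 346 FPKM in replicates 1 to 4, whereas Gm24245 was at 0 in all 4, where up to 2.11 FPKM is allowed. Within these 57 bases the 3 rows cannot be told apart, and the bases around them were not compared. How reads came to be split between the rows was not tested, so the split is uncertain. Gm23935 and CT010467.1 are provisional symbols named after their values were seen. Without Gm23935 the 10 most abundant rows held 6.12% of the summed FPKM.

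Among named genes, the most abundant encode mitochondrial respiratory chain subunits, matrix and secreted proteins, cytoskeletal proteins and stress proteins. The cytochrome c oxidase subunit gene mt-Co1 had 4019, 3054, 2378 and 2784 FPKM in replicates 1 to 4. Ccn1, which encodes a secreted matricellular protein, followed with 1886, 1915, 1799 and 2120 FPKM. Fibronectin, encoded by Fn1, had 2115 and 2038 FPKM in replicates 1 and 2 and 1202 and 1231 FPKM in replicates 3 and 4. Fn1 is 1 of several abundant genes on which the 2 pairs of libraries did not overlap. The share of all expressed genes on which the pairs did not overlap was not counted. No gene named here or below is therefore shown to be special in this.

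The next genes in order of mean FPKM were Ifitm3, an interferon-induced membrane protein (1522), Hspb1, a small heat shock protein (1456), and Akr1b3, the aldose reductase (1372). Further members were mt-Nd1 (1239) and mt-Cytb (982), subunits of respiratory complexes, Actb, β-actin (1232), and Ptgs2, the inducible cyclooxygenase (1123). Ptgs2 had 1384, 1093, 981 and 1033 FPKM in replicates 1 to 4, while the constitutive enzyme Ptgs1 averaged 10.5 FPKM. Apln, the ligand of the apelin receptor, had 1276 and 1424 FPKM in replicates 1 and 2 and 627 and 566 FPKM in replicates 3 and 4. Its receptor gene Aplnr lay at 0.0760 FPKM or below in every library. Tmsb4x, an actin-sequestering peptide, likewise had 1272 and 1389 FPKM in replicates 1 and 2, above the 746 and 755 FPKM in replicates 3 and 4.

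Also among the 25 highest were Igfbp7, a secreted binding protein (mean 1086 FPKM), Hist1h1c and H1f0, which encode linker histones (1010 and 842), Fth1, the ferritin heavy chain (954), and Cst3, a protease inhibitor (881). They also include Actg1, γ-actin (878), Eef1a1, an elongation factor (861), Ubb, ubiquitin (854), and Cpe, carboxypeptidase E (770). The list ends with mt-Nd2 (764), mt-Nd5 (717) and the ribosomal protein gene Rplp1 (716), all values being mean FPKM. H1f0 was spread most, with 732, 368, 987 and 1282 FPKM in replicates 1 to 4. Genes encoded by the mitochondrial genome held 3.64% of the summed FPKM and the 83 cytosolic ribosomal protein genes held 3.31%. Several of these levels are uncertain because the transcripts share stretches of 50 bases with transcripts of other genes. The shared part was 60.0% for Rplp1, 51.1% for mt-Co1, 50.1% for Hspb1, 48.1% for Ubb, 40.4% for Eef1a1 and 37.4% for Actg1. mt-Co2, at 100% shared, was listed at 42.7, 32.0, 23.6 and 35.9 FPKM, and Gapdh, whose 50-base stretches occur in 223 other genes, at 11.1, 43.0, 40.2 and 9.09 FPKM in replicates 1 to 4.

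**Figure D1:**
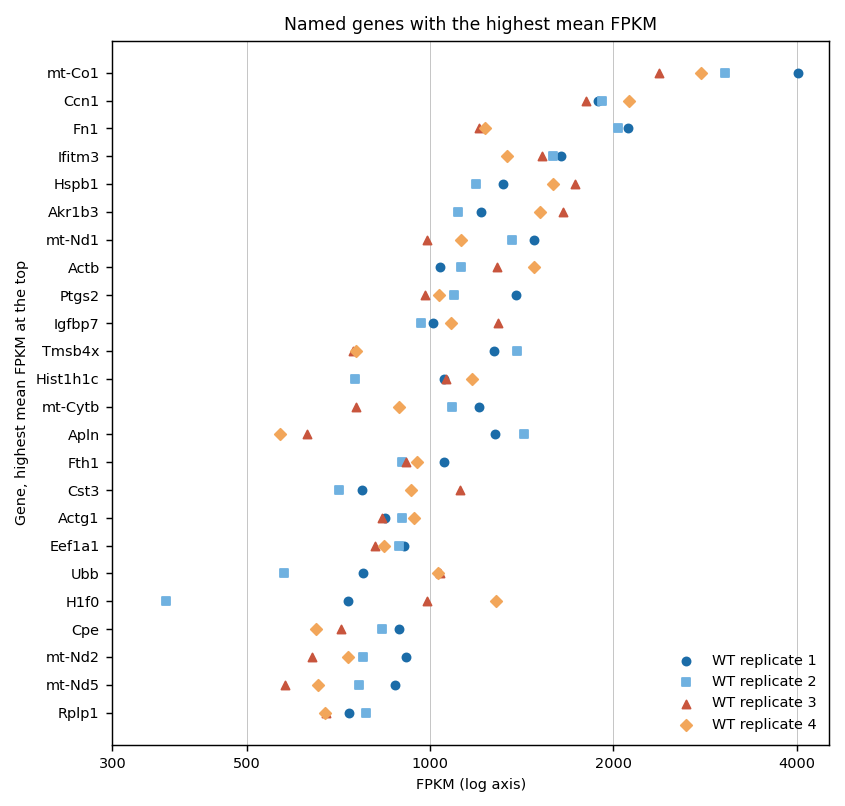
FPKM on a log axis for the named genes with the highest mean FPKM, in each of the 4 WT libraries (1 point per library). mt-Co1 is highest at a mean of 3059 FPKM, and Fn1, Tmsb4x and Apln are higher in replicates 1 and 2 than in replicates 3 and 4.

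The cultures carried the endothelial label in their markers. Cdh5, the VE-cadherin gene at chr8:104101625-104144511 (GRCm38), had 679, 649, 544 and 504 FPKM in replicates 1 to 4, and ranked 36 among expressed genes. Pecam1, an adhesion receptor of endothelial contacts at chr11:106654217-106750628, had 391, 367, 348 and 327 FPKM. The highest over lowest FPKM was 1.35 for Cdh5 and 1.20 for Pecam1, beside a median of 1.33 over all expressed genes. Both genes were higher in replicates 1 and 2 than in replicates 3 and 4.

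Of 41 pan-endothelial genes, 38 were expressed, which is 92.7% beside the 44.3% of all protein coding genes, and the median of the list was 33.5 FPKM. The members of this and the other lists were chosen with earlier results of these data known. Their shares are therefore a description and not independent support. Endoglin, a co-receptor for BMP ligands encoded by Eng, had 584, 639, 559 and 528 FPKM in replicates 1 to 4. The sialomucin gene Cd34 averaged 380 FPKM, and the TIE receptor genes Tie1 and Tek averaged 89.3 and 13.5 FPKM. Vwf, the von Willebrand factor gene, lay far lower at 4.09, 4.19, 5.82 and 6.33 FPKM. The 3 members not expressed were Gpihbp1, a lipoprotein lipase transporter, Aplnr and Bmx, a kinase of arterial endothelium, with means of 0.125, 0.0399 and 0.0365 FPKM. Kdr, the main VEGF receptor gene, had 26.5, 40.1, 16.9 and 17.7 FPKM, and Flt1, the decoy VEGF receptor gene, had 23.5, 22.7, 24.7 and 24.2 FPKM.

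Of 34 transcription factors of endothelium, 29 were expressed, or 85.3% beside the 44.3% of all protein coding genes. Erg, an ETS factor of endothelial identity, had 280, 257, 275 and 260 FPKM in replicates 1 to 4. The forkhead genes Foxf2 and Foxq1, known from brain endothelium, averaged 69.8 and 21.7 FPKM, although 65.7% of the 50-base stretches of Foxq1 occur in another gene. The flow-responsive factors differed, as Klf2 had 55.7, 33.8, 33.1 and 46.7 FPKM and Klf4 had 56.9 and 34.7 FPKM in replicates 1 and 2 and 152 and 159 FPKM in replicates 3 and 4. Sox18 stood out with 107 FPKM in replicate 2, against 8.48, 7.39 and 9.18 FPKM in replicates 1, 3 and 4. Prox1, Hey2, Lef1, Meox2 and Foxc2 did not reach 1 FPKM in all libraries.

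**Figure D2:**
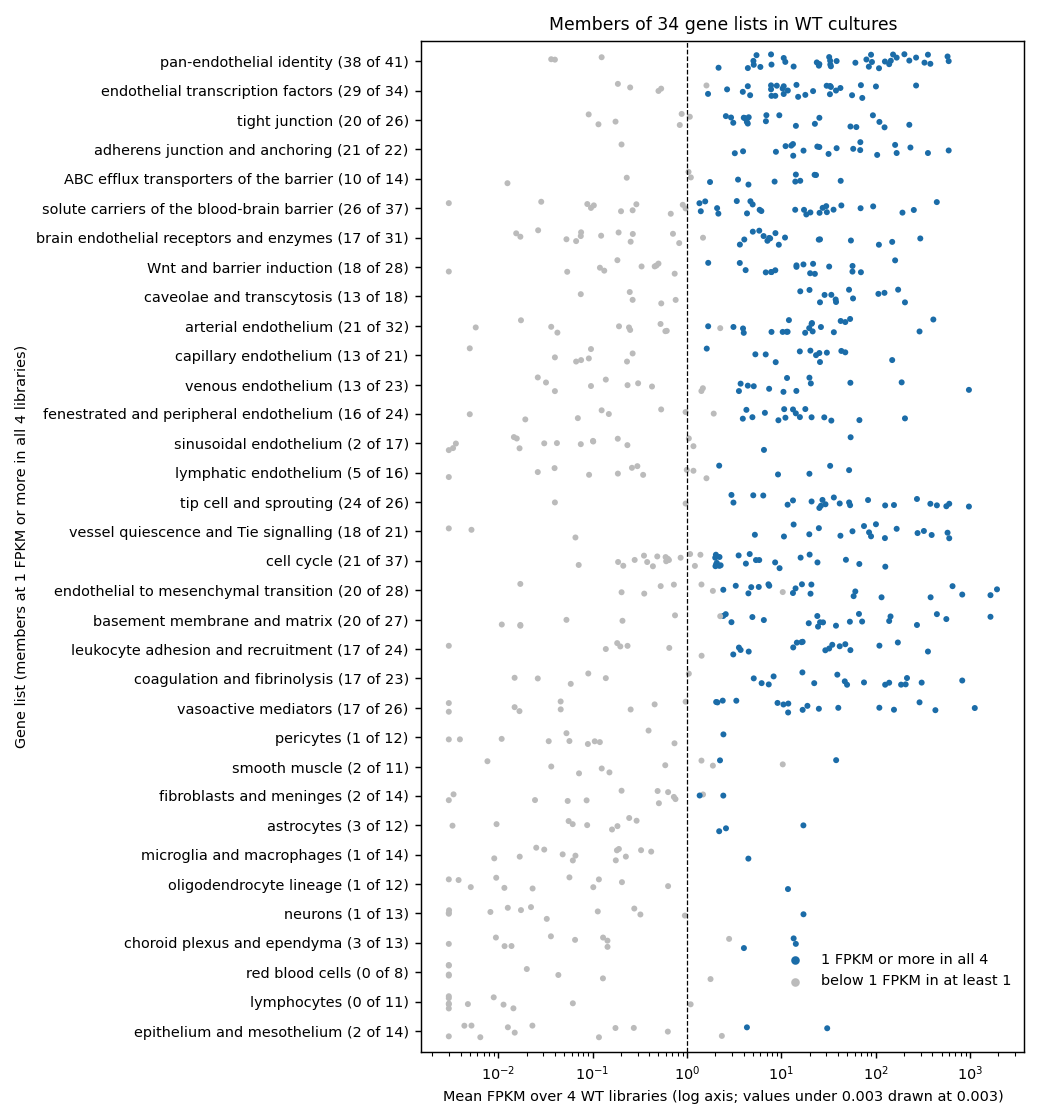
Mean FPKM over 4 WT libraries (log axis) of every found member of 34 gene lists, 1 point per gene, with the dashed line at 1 FPKM. Lists of endothelial, junction and matrix genes lie mostly to the right of the line, and lists of markers of other cell types lie mostly to the left.

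Markers of other cell types were mostly under the threshold, which 44.3% of all protein coding genes reached. Of 12 pericyte markers only Pdgfrb, a growth factor receptor gene, was expressed, at 2.21, 2.63, 2.12 and 2.79 FPKM in replicates 1 to 4, and the summed level of the 12 was 2.99 to 5.31 FPKM. Rgs5, Kcnj8 and Vtn, which define pericytes, were at 0.173 FPKM or below. Cd68 was the only expressed marker of 14 for microglia and macrophages, with 3.24, 2.55, 7.71 and 4.42 FPKM. The 4 haemoglobin genes were at 0 in all libraries, where up to 0.180 FPKM is allowed, and none of 8 red cell or 11 lymphocyte markers was expressed.

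Neural markers were expressed in 3 of 12 astrocyte genes, 1 of 12 oligodendrocyte lineage genes and 1 of 13 neuronal genes. The astrocyte genes were Slc1a3, a glutamate transporter with 18.5, 14.9, 18.1 and 17.2 FPKM in replicates 1 to 4, Sox9 and Gja1, while the defining markers Gfap and Aqp4 were at 0.225 FPKM or below. For neurons the gene was Syn1, a synaptic vesicle protein gene, with 20.9, 19.3, 15.1 and 13.5 FPKM, while Snap25 was at 0, with up to 0.0177 FPKM allowed. The oligodendrocyte gene was Cnp, with a mean of 11.8 FPKM, while Olig1 was at 0 in all 4 libraries, with up to 0.0556 FPKM allowed. Among 13 choroid plexus and ependymal genes, Clic6, Aqp1 and Enkur were expressed, and Ttr, the transthyretin gene that defines choroid plexus, was at 0 with up to 0.101 FPKM allowed.

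Epithelial and mesothelial markers were expressed in 2 of 14 genes, Krt19 and Cldn4. Krt19, a keratin of simple epithelia, had 24.6, 27.6, 33.1 and 37.3 FPKM in replicates 1 to 4, and none of its 50-base stretches occurs in another gene. Its usual partner Krt8 was at 0.0538 FPKM or below and Krt18 at 0.953 FPKM or below. In fibroblast and meningeal markers, 2 of 14 genes were expressed, Col1a1 and Lama1, with means of 2.43 and 1.36 FPKM. Fewer cells of a type and less RNA per cell cannot be told apart in such bulk libraries.

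Of 26 tight junction genes, 20 were expressed, or 76.9% beside the 44.3% of all protein coding genes. The list median was 4.47 FPKM. Cldn5, the main claudin of brain endothelium at chr16:18776847-18778262 (GRCm38), had 74.4 and 103 FPKM in replicates 1 and 2 and 34.3 and 38.4 FPKM in replicates 3 and 4, so its pairs did not overlap. Occludin, encoded by Ocln, was steady with 23.4, 22.6, 22.8 and 22.0 FPKM. The scaffold gene Tjp1 averaged 54.1 FPKM, and Cgnl1, a paracingulin gene, had 166, 152, 90.9 and 87.7 FPKM. Esam, an adhesion molecule of endothelial contacts, was the highest of the list with a mean of 227 FPKM, followed by Cgnl1 and F11r, a junctional adhesion molecule, with a mean of 110 FPKM.

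The lowest tight junction gene was Cldn11, at 0 in replicates 1 and 2 and at 0.282 and 0.0824 FPKM in replicates 3 and 4. Cldn3 had 0.904, 0.573, 1.03 and 1.01 FPKM, and Marveld3, Cgn, Patj and Tjp3 also stayed under 1 FPKM in at least 1 library. Among 24 claudins with a row, a list added after the values were seen, 6 were expressed. This is 25% beside the 44.3% of all protein coding genes. The 6 were Cldn1, Cldn4, Cldn5, Cldn6, Cldn12 and Cldn15. Cldn6, a claudin known from embryonic epithelia, had 12.8, 12.3, 14.3 and 12.4 FPKM in replicates 1 to 4. Cldn12 averaged 9.53 FPKM and Cldn15 had 1.78, 1.94, 7.69 and 4.61 FPKM.

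In adherens junctions 21 of 22 genes were expressed, all but Radil, which is 95.5% beside 44.3% of all protein coding genes. This list too was chosen with earlier results of these data known. No expressed member had a highest over lowest FPKM above 2. With only 21 expressed members, this is not far from the 10.4% of all expressed genes. The catenin genes Ctnna1 and Ctnnb1 averaged 234 and 161 FPKM. Cdh2, the N-cadherin gene, averaged 13.3 FPKM, below the 594 ± 83.3 FPKM (SD, n = 4) of Cdh5. Ptprb, the phosphatase that binds VE-cadherin, averaged 167 FPKM.

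Of 14 ABC transporter genes, 10 were expressed, or 71.4% beside 44.3% of all protein coding genes. None of the 10 had a highest over lowest FPKM above 2, and with so few genes this is near the 10.4% of all expressed genes. Abcb1a, the P-glycoprotein gene at chr5:8660077-8748575, had 47.1, 42.4, 41.0 and 39.9 FPKM in replicates 1 to 4, although 22.5% of its 50-base stretches occur in 3 other genes. Its paralogue Abcb1b averaged 3.48 FPKM, and reads may be split between the 2 genes. Abcg2, the breast cancer resistance protein gene, had 16.7, 16.2, 16.4 and 14.2 FPKM. Abcc4 and Abcc5 averaged 8.50 and 14.1 FPKM, whereas Abcc2, Abcc6, Abca1 and Abcd4 did not reach the threshold in all 4.

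The solute carrier list held 37 genes, of which 26 were expressed, or 70.3% beside the 44.3% of all protein coding genes. Slc2a1, the glucose transporter of the barrier at chr4:119108711-119137983, had 478, 567, 373 and 361 FPKM in replicates 1 to 4. The heavy and light chain genes of the large amino acid transporter were expressed too, with Slc3a2 at 90.4, 68.9, 62.2 and 55.4 FPKM and Slc7a5 at 43.2, 34.3, 46.2 and 49.5 FPKM. Slc16a1, the monocarboxylate transporter gene, had 11.7 and 8.45 FPKM in replicates 1 and 2 and 29.1 and 32.1 FPKM in replicates 3 and 4, so its order was the opposite of that of Slc2a1.

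A group of transporters that mark brain endothelium in vivo lay below 1 FPKM. Mfsd2a, the lysophosphatidylcholine transporter that limits vesicle transport, had 0.163, 0.196, 0.328 and 0.377 FPKM in replicates 1 to 4. The organic anion carriers Slco1a4 and Slco1c1 averaged 0.0880 and 0.200 FPKM, and Slc22a8 was at 0 in replicates 1 to 3 and 0.0111 FPKM in replicate 4. The glutamine carriers Slc38a3 and Slc38a5 averaged 0.103 and 0.0963 FPKM. Slc7a3, Slc29a1, Slc29a4, Slco2b1 and Slc4a4 were the other members that failed the threshold.

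**Figure D3:**
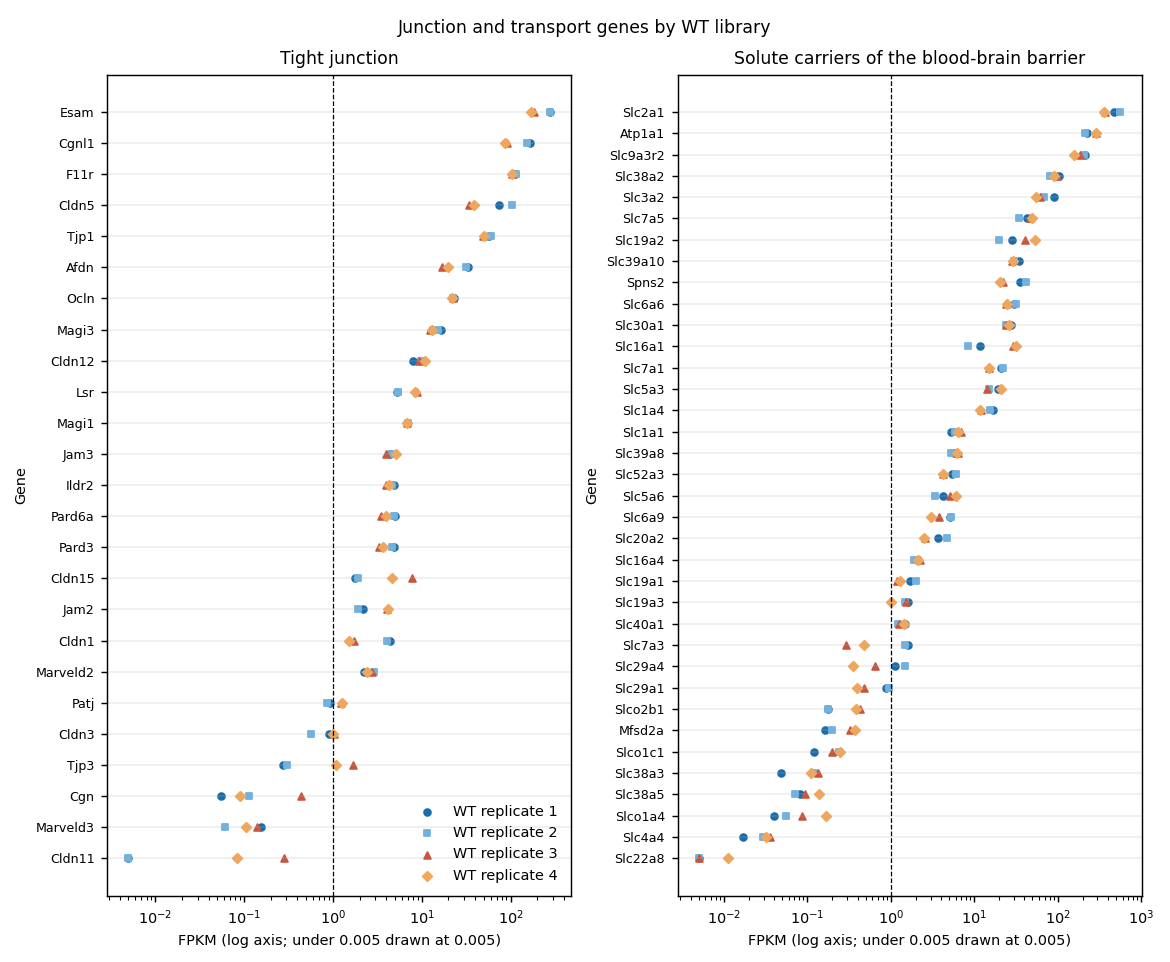
FPKM on a log axis for genes of the tight junction and solute carrier lists in each of the 4 WT libraries, with the dashed line at 1 FPKM. Slc2a1 and Esam are at the top of their panels, and Mfsd2a, Slco1a4 and Slc38a5 lie left of the line in every library.

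Among brain endothelial receptors and enzymes, 17 of 31 genes were expressed, a share of 54.8% that is near the 44.3% of all protein coding genes. Bsg, basigin, had 295, 287, 304 and 302 FPKM in replicates 1 to 4, and Itm2a and Ly6a averaged 150 and 108 FPKM. The transferrin receptor gene Tfrc had 23.1, 19.6, 30.4 and 29.7 FPKM. Low members included Car4, a carbonic anhydrase, Ggt1, a glutamyl transferase, Alpl, alkaline phosphatase, and Ly6c2, a paralogue of Ly6c1, with means of 0.0670, 0.189, 0.0751 and 0.0265 FPKM.

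The Wnt list had 18 of 28 genes expressed, or 64.3% beside the 44.3% of all protein coding genes. Its members divided by role. Receptors and co-receptors were expressed, with Fzd6 at 55.2, 54.3, 60.4 and 57.2 FPKM in replicates 1 to 4 and Fzd4 at a mean of 22.7 FPKM, from 19.3 to 27.8 FPKM. The co-receptor genes Lrp5 and Lrp6 averaged 32.2 and 14.5 FPKM, and Tspan12 averaged 17.2 FPKM. Adgra2 and Reck, which help endothelium to sense WNT7 ligands, averaged 56.9 and 7.81 FPKM.

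Genes that β-catenin induces were mostly low. Axin2, a feedback inhibitor used as a readout of the pathway, had 0.167, 0.204, 0.0638 and 0.0980 FPKM in replicates 1 to 4. Lef1 had 0.573, 0.639, 0.376 and 0.412 FPKM, and Tcf7, Nkd1, Notum, Znrf3 and Rnf43 were likewise below 1 FPKM in every library. Apcdd1, a Wnt inhibitor of brain endothelium, had 23.8, 26.6, 15.7 and 14.7 FPKM, and Tnfrsf19, a receptor gene induced by the pathway, averaged 3.63 FPKM. The ligand genes Wnt7a and Wnt7b averaged 0.331 and 0.120 FPKM, and Ndp was at 0 in all libraries, where up to 0.0620 FPKM is allowed.

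In the caveolae and transcytosis list 13 of 18 genes were expressed, or 72.2% beside the 44.3% of all protein coding genes. Cav1, the caveolin gene, had 214, 223, 128 and 127 FPKM in replicates 1 to 4, with the pairs apart. Cavin1 averaged 107 FPKM and Ehd4, an ATPase of membrane traffic, 204 FPKM. Plvap, the diaphragm protein of fenestrated vessels that is low in the mature blood-brain barrier, had 37.2, 40.0, 30.3 and 28.1 FPKM. Its level was therefore above that of Mfsd2a in every library, on the per-length scale of FPKM.

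For the vessel beds of the brain, 21 of 32 arterial, 13 of 21 capillary and 13 of 23 venous genes were expressed. These shares of 65.6%, 61.9% and 56.5% stand beside the 44.3% of all protein coding genes, and no order of the beds is read from them. Of the arterial genes, Efnb2 had 22.3, 22.2, 20.8 and 19.2 FPKM in replicates 1 to 4, and Dll4, a Notch ligand gene, had 27.7, 35.8, 20.6 and 21.1 FPKM. Edn1, the endothelin gene, had 240, 395, 258 and 274 FPKM. The connexin genes Gja4 and Gja5, with Hey2, Bmx, Gkn3 and Eln, were below 1 FPKM in every library.

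Capillary genes were uneven too. Itm2a, Slc7a5 and Tfrc were expressed, while Mfsd2a, Slc38a5, Spock2, Car4, Cd36, Itih5, Hmcn1 and Aplnr were below 1 FPKM in every library. Among venous genes Ephb4, the receptor of ephrin B2, had 25.1, 29.3, 14.9 and 13.0 FPKM in replicates 1 to 4, and Nr2f2, a factor of venous identity, had 3.94, 5.55, 3.95 and 4.23 FPKM. Icam1 averaged 54.0 FPKM. Ackr1, the chemokine receptor that marks venules, and Selp, P-selectin, averaged 0.235 and 0.138 FPKM.

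Of beds outside the brain, the fenestrated and peripheral list had 16 of 24 genes expressed, or 66.7%, the sinusoidal list 2 of 17, or 11.8%, and the lymphatic list 5 of 16, or 31.3%, beside the 44.3% of all protein coding genes. The sinusoidal genes were Stab1, a scavenger receptor gene with 59.5, 58.3, 49.2 and 50.2 FPKM in replicates 1 to 4, and Bmp2 with a mean of 6.55 FPKM. The lymphatic genes were Flt4, the VEGFR3 gene with a mean of 52.3 FPKM, Sox18, Nrp2, Pdpn and Gja1, whereas Prox1, which specifies lymphatic fate, lay between 0.117 and 0.271 FPKM. Lyve1, a hyaluronan receptor gene of lymphatic vessels, had 1.23, 1.98, 0.794 and 0.687 FPKM.

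Genes of sprouting vessels were expressed in 24 of 26 cases, or 92.3% beside the 44.3% of all protein coding genes. The list median was 32.7 FPKM. Angpt2, the antagonist ligand of the TIE2 receptor, had 692, 722, 498 and 496 FPKM in replicates 1 to 4, while its agonist Angpt1 was at 0.0141 FPKM or below. Pdgfb, which recruits pericytes, had 71.6, 136, 62.7 and 62.4 FPKM, and Cxcr4 had 73.7, 57.2, 43.1 and 40.3 FPKM. Esm1, a proteoglycan gene of tip cells, had 22.3 and 24.2 FPKM in replicates 1 and 2 and 2.86 and 3.84 FPKM in replicates 3 and 4. In the list of vessel quiescence and Tie signalling, 18 of 21 genes, or 85.7%, were expressed, and Angpt1, Angpt4 and Gdf2 were not.

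The cell cycle list had 21 of 37 genes expressed, or 56.8%, which is near the 44.3% of all protein coding genes. Mki67, which encodes the proliferation marker Ki-67, had 0.402, 0.470, 0.251 and 0.395 FPKM in replicates 1 to 4. The mitotic genes Top2a, Ccnb1, Plk1, Aurkb and Cenpf were also below 1 FPKM in every library. Genes of replication and early phases were higher, with Pcna, the sliding clamp, at 49.5, 37.6, 97.5 and 83.9 FPKM and Mcm3, a helicase subunit, at a mean of 20.0 FPKM. Ccnd1, cyclin D1, had 187, 209, 55.3 and 54.8 FPKM. The cell cycle inhibitor gene Cdkn1a had 330, 261, 329 and 377 FPKM.

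Of 27 basement membrane and matrix genes, 20 were expressed, or 74.1% beside the 44.3% of all protein coding genes. Col4a1 had 528, 528, 362 and 364 FPKM in replicates 1 to 4, and its partner chain gene Col4a2 had 305, 340, 224 and 226 FPKM. The laminin chain genes Lama4, Lama5, Lamb2 and Lamc1 averaged 27.7, 19.5, 53.3 and 38.0 FPKM, and Lamb1 had 34.4, 35.2, 12.9 and 13.8 FPKM. Sparc, a collagen-binding protein, and Hspg2, perlecan, averaged 561 and 144 FPKM. In replicates 1 and 2, each of Col4a1, Col4a2, Lamb1, Fn1 and Sparc was above its level in replicates 3 and 4.

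Of 28 genes linked to endothelial-to-mesenchymal transition, 20 were expressed, or 71.4% beside the 44.3% of all protein coding genes. Among them were Vim with a mean of 382 FPKM and Ccn2 with a mean of 652 FPKM. The factor genes Snai1, Snai2, Twist1, Zeb1 and Zeb2 averaged 4.80, 5.77, 7.46, 14.2 and 3.29 FPKM. The contractile genes of this list were higher in replicates 1 and 2. Acta2, smooth muscle actin, had 17.4 and 21.9 FPKM in replicates 1 and 2 and 0.789 and 1.36 FPKM in replicates 3 and 4. Myl9, a myosin light chain gene, had 33.0 and 41.3 FPKM in replicates 1 and 2 and 3.96 and 3.38 FPKM in replicates 3 and 4. Cnn1, calponin, had 2.71, 2.74, 0.128 and 0.127 FPKM, and Tagln, transgelin, had 2.14, 3.83, 0.866 and 0.698 FPKM, although 58.4% of the 50-base stretches of Tagln occur in other genes. Tpm1, Tpm2 and Cnn2 were also higher in replicates 1 and 2, and the smooth muscle gene Myh11 was at 0.263 FPKM or below in every library. The summed level of 11 smooth muscle markers was 62.9, 73.3, 43.1 and 40.9 FPKM, and Smtn alone accounted for 37.5, 40.7, 38.4 and 35.9 FPKM of it. The part of smooth muscle cells in these levels was not tested.

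Because Acta2, Cnn1 and Myl9 moved together between libraries, the 250 bases before the first listed start of each are shown, from RefSeq (GRCm38.p6). The CArG box, the site of serum response factor, was searched on both strands, and capitals mark a box in its full form or with at most 1 G or C among its 6 inner bases. Acta2 lies on the minus strand at chr19:34255374-34255623, Cnn1 on the plus strand at chr9:22099003-22099252 and Myl9 on the plus strand at chr2:156775214-156775463.
Acta2: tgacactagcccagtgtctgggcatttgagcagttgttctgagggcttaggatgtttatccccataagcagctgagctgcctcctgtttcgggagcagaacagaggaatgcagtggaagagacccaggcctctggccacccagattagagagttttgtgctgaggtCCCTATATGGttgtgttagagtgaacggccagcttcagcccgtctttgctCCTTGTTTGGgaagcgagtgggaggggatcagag
Cnn1: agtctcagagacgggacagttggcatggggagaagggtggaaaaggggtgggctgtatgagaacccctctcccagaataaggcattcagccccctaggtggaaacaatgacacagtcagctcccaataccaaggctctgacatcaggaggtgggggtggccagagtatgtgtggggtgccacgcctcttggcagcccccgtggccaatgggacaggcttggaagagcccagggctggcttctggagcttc
Myl9: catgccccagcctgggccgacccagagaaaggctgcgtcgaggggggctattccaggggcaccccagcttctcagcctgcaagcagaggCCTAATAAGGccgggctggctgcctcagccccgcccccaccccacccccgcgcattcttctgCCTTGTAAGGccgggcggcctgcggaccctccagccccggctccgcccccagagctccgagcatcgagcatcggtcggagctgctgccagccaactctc
Acta2 held 0 full boxes and 2 boxes with 1 G or C inside, Myl9 held 1 of each, and Cnn1 held neither in this window. The full form occurred in 1.40% of the 27025 windows of 250 bases in the table and either form in 8.65%. Cnn2, whose levels were 67.3, 84.8, 45.0 and 46.3 FPKM in replicates 1 to 4, held 1 full box, and the windows of Tpm1 and Tpm2 held none. Windows were matched for 6 of the 7 contractile genes, all but Tagln. Acta2, Cnn1 and Myl9 were chosen by their levels in these same libraries, so their box counts are a description. Not every actin gene went their way, as Actb had 1036, 1124, 1285 and 1481 FPKM in replicates 1 to 4. The part of serum response factor in these levels was not tested.

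Genes of blood clotting and its control were expressed in 17 of 23 cases, or 73.9% beside the 44.3% of all protein coding genes. Plat, the tissue plasminogen activator gene, had 378, 295, 286 and 269 FPKM in replicates 1 to 4. The anticoagulant genes Pros1, Procr and Thbd averaged 215, 208 and 75.2 FPKM, and F3, tissue factor, had 2.79, 7.28, 6.75 and 7.93 FPKM. In leukocyte adhesion and recruitment 17 of 24 genes with a row, or 70.8%, were expressed. Ccl2, a monocyte chemokine gene, had 244 and 247 FPKM in replicates 1 and 2 and 96.6 and 99.2 FPKM in replicates 3 and 4, and Vcam1 had 5.86, 5.61, 1.70 and 1.66 FPKM. Of 26 vasoactive genes 17, or 65.4%, were expressed. Nos3, endothelial nitric oxide synthase, had 26.5, 29.6, 22.5 and 21.4 FPKM in replicates 1 to 4. The endothelin receptor genes Ednra and Ednrb were at 0.0603 FPKM or below in every library.

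The spread between libraries was measured as the highest over the lowest FPKM of each expressed gene. Its median was 1.33, with quartiles of 1.19 and 1.59, and 68.6% of expressed genes stayed below 1.5. It was above 2 for 1119 genes, or 10.4% of expressed genes, and above 4 for 126. Between replicates 1 and 2, 143 genes differed by more than 2-fold, and between replicates 3 and 4, 70 did so. The 4 other pairs had 457 to 718 such genes. The median coefficient of variation over the 4 libraries was 13.2%, while counting error alone at the implied reads gave 3.17%. By level, the median coefficient of variation was 15.4% for genes of 1 to 10 FPKM, 10.8% for 10 to 100 FPKM, 11.9% for 100 to 1000 FPKM and 17.8% for the 13 genes of 1000 FPKM and above, so it did not fall steadily with level. Since the labels define a single group, no test between libraries was made, and 2 libraries against 2 could not give an exact permutation p below 0.333.

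**Figure D4:**
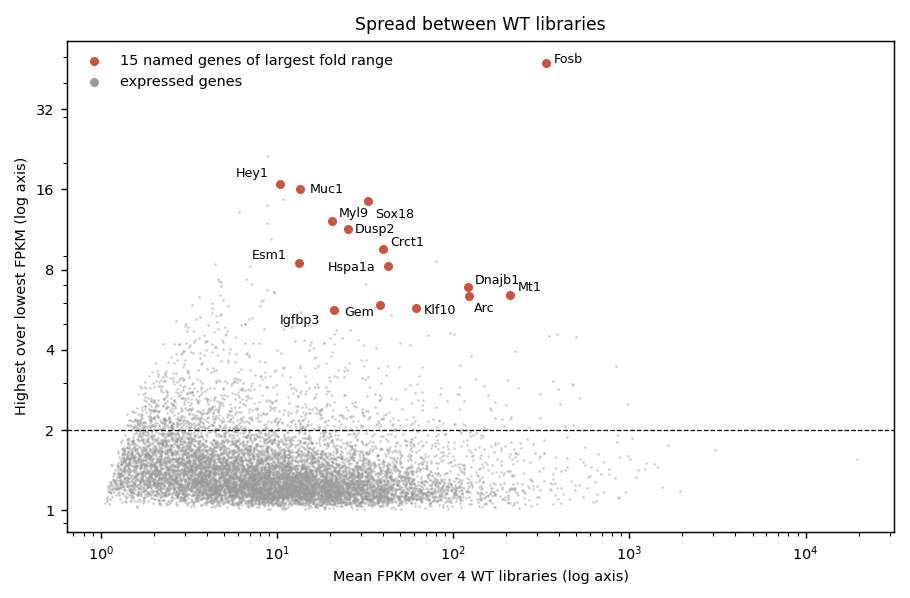
Highest over lowest FPKM of each expressed gene plotted against its mean FPKM, both on log axes, with the dashed line at 2 and the 15 named genes of largest fold range in red. Fosb is the highest at 47.6, and most genes lie below the line.

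The genes of mean FPKM of at least 10 with the largest spread were Fosb, Hey1, Muc1, Sox18, Myl9, Dusp2, Crct1, Esm1, Hspa1a, Dnajb1, Mt1, Arc, Gem, Klf10 and Igfbp3. These genes were chosen by this spread, so their values are a description. Several separated the 2 pairs of libraries. Muc1, a membrane mucin gene, had 2.18 and 1.83 FPKM in replicates 1 and 2 and was highest in replicate 3 at 29.2 FPKM, with replicate 4 next to it. Crct1 had 64.4 and 77.9 FPKM in replicates 1 and 2 and 8.82 and 8.18 FPKM in replicates 3 and 4. Igfbp3, a growth factor binding protein gene, had 34.4, 35.5, 6.27 and 7.59 FPKM, and Esm1 and Myl9 went the same way. Arc, an activity-regulated gene, went the other way with 36.5, 37.2, 185 and 232 FPKM.

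In others the lowest library was far from the next. Mt1, a metallothionein gene, had 58.3 FPKM in replicate 2, against 375, 184 and 229 FPKM in replicates 1, 3 and 4. Hey1, a Notch target gene, had 1.19 FPKM in replicate 1, against 20.0, 9.68 and 10.5 FPKM in replicates 2 to 4. Klf10, induced by TGF-β, had 14.2 FPKM in replicate 1, against 81.1, 77.4 and 74.2 FPKM in replicates 2 to 4. In a further group both of replicates 1 and 2 lay below replicates 3 and 4, and also differed from each other. Fosb, a subunit of the AP-1 factor, had 170, 12.8, 557 and 609 FPKM in replicates 1 to 4. Dusp2 had 3.80, 15.2, 43.1 and 38.6 FPKM, Gem had 31.0, 9.93, 58.3 and 54.6 FPKM, and Dnajb1 had 95.9, 29.1, 160 and 200 FPKM in replicates 1 to 4. Hspa1a had 18.6, 9.15, 66.6 and 75.5 FPKM, but 66.3% of its 50-base stretches occur in other genes.

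**Figure D5:**
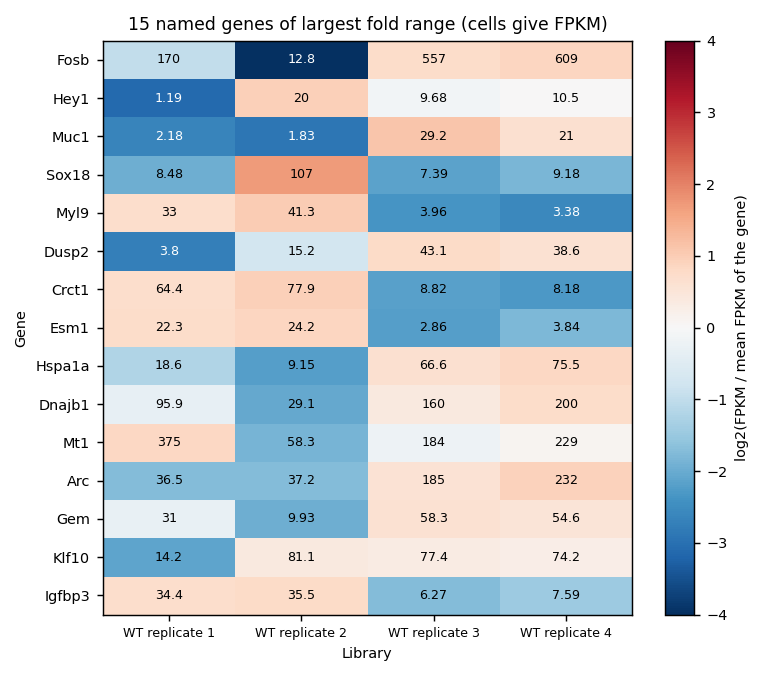
FPKM of the 15 named genes of largest fold range in each WT library, coloured by log2 of the FPKM over the gene's mean. Fosb, Gem and Dnajb1 are lowest in replicate 2, Hey1 and Klf10 are lowest in replicate 1, and Esm1, Crct1 and Igfbp3 are higher in replicates 1 and 2.

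Further lists were drawn up after these values had been seen, and they are described without a test. All 26 immediate early genes, which respond within minutes to growth factors and stress, were expressed, beside 44.3% of all protein coding genes. Their median spread was 2.76, beside 1.33 over all expressed genes, and 16 of them were above 2, beside 10.4% of all expressed genes. Their summed FPKM was 4342, 2805, 5572 and 6318 in replicates 1 to 4. Fos had 376, 122, 361 and 548 FPKM, Egr1 had 261, 112, 245 and 321 FPKM and Atf3 had 479, 165, 600 and 740 FPKM, each lowest in replicate 2. All 16 heat shock and chaperone genes were expressed, and 3 of them were above 2.

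Targets of BMP and Notch signalling were expressed in 7 of 13 cases, or 53.8%, near the 44.3% of all protein coding genes. Of the 7, 6 had a spread above 2, beside 10.4% of all expressed genes, and the list was chosen with these values known. Id1 had 185, 357, 501 and 525 FPKM in replicates 1 to 4, and Smad7 had 17.7, 73.4, 69.0 and 67.0 FPKM. Hes1 had 47.1, 124, 136 and 130 FPKM. Together with Hey1, these genes were lowest in replicate 1. Replicate 2 was at least 1.5-fold above the other 3 libraries for 75 genes and as far below them for 116, and the median GC content of their transcripts was 54.9% and 50.7%, beside 50.1% over all expressed genes. In replicate 1 the genes above and below numbered 19 and 110, with a median GC content of 48.4% and 54.0%. In replicate 3 they numbered 86 and 51, with 52.1% and 48.2%, and in replicate 4 they numbered 42 and 20, with 48.7% and 52.5%. The part of GC content in these differences was not tested.

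The steadiest named genes of mean FPKM of at least 10 were Drosha, Rplp2, Atp6v0e2, Ddx42, Erlin2, Sept11, Katnbl1, Eif3f, Eif4h and Scarb1, with a highest over lowest FPKM of 1.01 to 1.02. Drosha, which cleaves primary microRNAs, had 10.8, 10.8, 10.9 and 10.8 FPKM in replicates 1 to 4. Rplp2, a ribosomal protein gene, had 93.0, 93.7, 93.1 and 92.8 FPKM. Eif4h, an initiation factor gene, had 51.1, 50.8, 50.3 and 50.7 FPKM. Of the 12 housekeeping genes added to the lists, all were expressed, with a median spread of 1.13, and Gapdh alone was above 2.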

How the data were processed

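RNA was purified on columns and libraries came from an NEBNext Ultra kit, per the labels' protocols. HISAT2 2.0.5 aligned the reads, per the submitters' processing notes. How genes were counted, on which build and annotation, with which filters and whether by strand is not given in the sources used here. No unit stands in the deposited tables. They were read as FPKM because a deposited value times the exon length of the gene (GENCODE M21, GRCm38, known for 54495 of 54532 genes) was a whole number of steps of 1 size in each library for 96.5% to 96.7% of values above 0, at a tolerance of 0.01. The step size gave the implied reads, in total and per gene. Symbols were found for 54409 genes.

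The 4 wild-type tables were described without a test. Genes at 1 FPKM in all 4 were described by level, by 34 gene lists and by the highest over the lowest FPKM, and correlations used log2(FPKM + 1). The lists and members were chosen with earlier results of these data known, and 8 lists were added later. Named genes were the 25 highest, list members, the 15 most and 10 least variable of mean FPKM of at least 10, and 3 on each side of the threshold, without provisional symbols. Some of these genes are not reported here, but list counts include them. Shared sequence is the percent of a gene's 50-base stretches found in transcripts of other genes. A count of 0 was given a limit of 3 reads. No pair of tables was identical. The steps for spread were tested on simulated data. Other thresholds, scalings, pseudocounts and omitted libraries were tried. Promoter windows are from RefSeq (GRCm38.p6). Software was matplotlib 3.10.9, scipy 1.17.1, pandas 2.3.3 and numpy 2.4.6, run in Python 3.11.15.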

Additional observations from a re-analysis of the deposited data

Results flagged for a closer look

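In 12 of the 257 named genes checked, which is 4.67%, the highest or the lowest of the 4 libraries lay far from the other 3, by Dixon's criterion for the gap over the whole range. For genes not chosen by their values, chance alone places about 1 in 20 groups beyond that limit. The genes checked include the 15 chosen for the largest spread and members of lists added after the values were seen. The share found can therefore not be judged against 1 in 20. Replicate 1 was low for Hes1 at 47.1 FPKM, Klf10 at 14.2 FPKM and Smad7 at 17.7 FPKM. Replicate 2 was high for Sox18 at 107 FPKM and Pdgfb at 136 FPKM, for Tnfrsf14 at 1.42 FPKM and for Kcnj8 at 0.0157 FPKM. Replicate 3 was high for Cgn at 0.443 FPKM and Vtn at 0.173 FPKM. Replicate 4 was high for Ccn2 at 715 FPKM and Slc22a8 at 0.0111 FPKM, and low for Hmcn1 at 0.211 FPKM. The nearest other library had 124 FPKM for Hes1, 74.2 FPKM for Klf10, 67.0 FPKM for Smad7 and 9.18 FPKM for Sox18. Kcnj8 and Slc22a8 lie under the limits of 0.0472 and 0.0296 FPKM that a count of 0 allows in those libraries.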

How the results depend on the processing

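The number of expressed genes kept within 1.5 times of 10730 in every alternative run, from 9114 at 2 FPKM in all 4 libraries to 13398 at 1 TPM. The expressed members of the lists ranged from 308 to 377 around 346. The share of the 10 most abundant rows was 6.05% when reads were not divided by length and 6.12% without Gm23935, the second of these chosen after seeing the data. The median spread of 1.33 was 1.28 on FPKM + 1, 1.27 for genes of at least 5 FPKM, 1.19 on FPKM + 1 without a filter, and 1.26 to 1.29 when each library was left out. The number of genes with a spread above 2 was 648 on FPKM + 1, 372 for genes of at least 5 FPKM and 746 to 953 when each library was left out. The median correlation of 0.967 was 0.982 without a filter and 0.961 to 0.969 when each library was left out. In single lists, 183 of 192 counts stayed within 1.5 times of the main one, and the 9 others fell in 8 lists, among them the cell cycle list with 13 members at 2 FPKM in place of 21. No paired analysis was possible because only 1 group is described and the results come from no test. Genes of few reads are limited by depth, and a count of 0 covers counting error only.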
